A study of Homo sapiens with 12 samples.

Results

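The G1 cyclins and their kinases move a cell from rest toward the copying of its DNA. The 10 genes described here were chosen by symbol from the 60675 genes of the table: the D-type cyclins CCND1, CCND2 and CCND3, their kinases CDK4 and CDK6, the E-type cyclins CCNE1 and CCNE2, their kinase CDK2, the phosphatase CDC25A, which removes inhibitory phosphates from CDK2, and the transcription factor MYC. All 10 passed a minimum of 1 TPM (reads divided by gene length and by the library total, so that libraries share 1 sum) in at least 2 libraries, as did 15303 genes in all. RNA was sequenced in 12 libraries of MCF10A, an immortalized and non-tumorigenic human mammary epithelial line, 2 in each of 6 groups. Wild-type cells (WT) and cells edited at IL1R1 (IL1R1-KO) or at IL1RAP (IL1RAP-KO) were sequenced without treatment and after 20 Gy of X-rays given once (RT). The IL1R1 protein is the interleukin-1 receptor, and IL1RAP joins it to signal. KO cells were pools selected with puromycin after CRISPR/Cas9 editing, not clones. All groups grew in medium with epidermal growth factor, insulin, hydrocortisone, cholera toxin and horse serum. The time from RT to RNA extraction of these libraries, and which guide RNA each KO library carried, were not given in the sources used here.

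D-type cyclins are induced by growth factors and bind CDK4 or CDK6, which phosphorylate the retinoblastoma protein RB1 and its relatives and so release E2F transcription factors. E2F factors switch on the E-type cyclins, CDC25A and the genes of DNA replication, and cyclin E with CDK2 completes the phosphorylation of RB proteins and starts replication. MYC is an immediate early growth factor target that promotes passage through G1 and ribosome production. After DNA damage, p53 induces the CDK inhibitor p21 (CDKN1A), and CDC25A protein is degraded. MCF10A cells have lost the CDKN2A and CDKN2B genes, which encode inhibitors of CDK4 and CDK6, and both genes were listed at 0 TPM in all 12 libraries.

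On GRCh38 (GENCODE v44), CCND1 lies on chromosome 11 from 69641156 to 69654474, CCND2 on chromosome 12 from 4269771 to 4305353 and CCND3 on chromosome 6 from 41934934 to 42050357. CDK4 lies on chromosome 12 from 57747727 to 57756013, CDK6 on chromosome 7 from 92604921 to 92836573 and CDK2 on chromosome 12 from 55966781 to 55972789. CCNE1 lies on chromosome 19 from 29811991 to 29824312 and CDC25A on chromosome 3 from 48157146 to 48188417. Genes on the opposite strand share part of the span of CDK4 (TSPAN31, at 20.2 to 32.2 TPM) and of CCNE2 (INTS8, at 30.6 to 47.9 TPM, and NDUFAF6, at 14.3 to 35.4 TPM). The library kit keeps the strand of the RNA, but the strand setting of the count was not given in the sources used here, so reads shared with these neighbours cannot be separated. On the same strand, the protein-coding gene ENSG00000285901 (0.85 to 11.4 TPM) shares 31592 bases with CCND2. There the strand of a read cannot tell the genes apart under any setting.

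Promoter sequences from RefSeq (GRCh38.p14, 250 bases before to 50 after a start site) were at hand for 5 members, CCND3, CDK4, CDK6, CCNE1 and CDC25A, with 8 promoters in all. Those of CDK4 and CDC25A are shown because both mRNAs fell after RT in every genotype and because they carry the motifs searched, E2F site TTTNNCGC and E-box CACGTG, the sequence bound by MYC with MAX. Both strands were searched, and the E-box reads the same on both. The 250 bases before the start are written from 5′ to 3′ on the strand of the gene (the minus strand for both), with motif matches in capitals, for chr12:57752311-57752560 (CDK4) and chr3:48188418-48188667 (CDC25A).
CDK4: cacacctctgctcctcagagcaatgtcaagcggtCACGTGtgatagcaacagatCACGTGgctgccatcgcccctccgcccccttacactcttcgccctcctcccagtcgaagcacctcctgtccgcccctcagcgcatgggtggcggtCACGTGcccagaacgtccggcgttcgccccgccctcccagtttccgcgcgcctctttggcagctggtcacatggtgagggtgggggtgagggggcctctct
CDC25A: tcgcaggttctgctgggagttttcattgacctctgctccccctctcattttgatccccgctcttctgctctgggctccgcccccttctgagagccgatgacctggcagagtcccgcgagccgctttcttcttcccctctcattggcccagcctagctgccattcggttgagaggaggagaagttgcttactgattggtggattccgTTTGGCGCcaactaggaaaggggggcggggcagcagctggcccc
The CDK4 sequence holds 3 E-boxes, which begin 216, 196 and 101 bases before the start, and no E2F site. The CDC25A sequence holds 1 E2F site, which begins 44 bases before the start, and no E-box. One promoter of CDK6 holds an E-box after its start, and the other 5 promoters hold neither motif. Of 35116 promoters of the same length in the table, 6.89% hold the E2F site and 7.26% the E-box.

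Transcripts of mitochondrial DNA took 18.3% to 21.1% of the TPM in untreated libraries and 36.9% to 57% after RT, so TPM were rescaled by trimmed mean factors, and values below are scaled TPM unless said otherwise. The 57% share was that of IL1RAP-KO RT replicate 2, which also had the largest factor (1.345). The 2 IL1RAP-KO RT libraries had the lowest correlation within a group (r = 0.972), and IL1RAP-KO RT replicate 1 had a higher r, 0.981, with a library outside its group. So had both untreated IL1R1-KO libraries, at 0.986 and 0.988 against 0.985 with each other. IL1RAP mRNA stood at 4.4 and 4.96 in untreated IL1RAP-KO libraries against 18 and 20.7 in WT. After RT the gap was narrower, with IL1RAP at 3.05 and 5.8 in IL1RAP-KO and at 8.33 and 8.79 in WT libraries. IL1R1 mRNA stood at 11 and 7.79 in untreated libraries labelled IL1R1-KO and at 10.6 and 9.44 in WT. These values overlapped, so the IL1R1-KO label could not be checked by mRNA level. The study reports a check by protein: after interleukin-1, wild-type cells degraded the protein IκBα and IL1R1 knockout cells resisted this. Of the 6 basal mammary epithelial markers all were detected, with a summed level of 3500 to 4434 untreated and 1661 to 2932 after RT, and the 4 general epithelial markers summed to 628.4 to 671.8 and 319.5 to 390.4. Of 6 fibroblast markers 4 stayed under 1, COL1A2 at 0, with a summed level of 17.8 to 22.9 untreated and 42.8 to 90.9 after RT. DCN, which made up most of that sum, ran from 16.52 to 89.45 over the 12 libraries, and COL1A1 from 0.311 to 3.05. Of 6 leukocyte markers 5 stayed under 1 (sums of 2.94 to 4.32 and 2.7 to 8.65), and of 4 endothelial markers CDH5 and VWF did (2.96 to 4.88 and 6.55 to 9.83). The leukocyte marker CD68 ran from 1.87 to 7.62, and the endothelial markers PECAM1 from 2.23 to 6.23 and KDR from 0.724 to 3.77. The part of other cell types in the results was not tested.

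RT lowered the mRNA of 3 of the 10 genes in WT, 4 in IL1R1-KO and 5 in IL1RAP-KO cells. It raised none. Calls needed both an adjusted p from limma below 0.05 and more than a 2-fold change on the log2(scaled TPM + 1) scale. CDC25A, CDK2 and CDK4 were called lower in all 3 genotypes. CCNE2 was called lower in both KO genotypes, and CCNE1 in IL1RAP-KO cells. CCND3 was 1.78-fold higher in WT cells, short of the fold threshold, and the other D-type cyclins and CDK6 stood closer to their untreated levels. Among all tested genes, 6.16% were called lower and 7.05% higher in WT, 8.16% lower and 8.16% higher in cells labelled IL1R1-KO, and 9.18% lower and 8.21% higher in IL1RAP-KO cells. The median log2 fold change of the 10 genes was -0.52 in WT, -0.77 in IL1R1-KO and -0.99 in IL1RAP-KO cells, against 0.00, 0.01 and 0.00 over all tested genes. At an unadjusted p under 0.05 stood 8, 10 and 7 of the 10 genes, those with higher values included. The share of all tested genes at that unadjusted p was not taken. It was at least 37.6% in WT, 42.5% in IL1R1-KO and 44.2% in IL1RAP-KO cells. Those shares of genes had an adjusted p below 0.05 and passed the lower fold threshold of the study's methods. The counts of the 10 genes therefore cannot be set against the shares of calls above.

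The balance of all calls depended on the scaling. In WT cells 53.4% of the genes called after RT were higher with trimmed mean factors and 30.3% with TPM as deposited. In cells labelled IL1R1-KO the share was 50% and rose to 81.8% when libraries were scaled to the same sum of non-mitochondrial genes, and in IL1RAP-KO cells it was 47.2% against 22.5% as deposited and 75.9% with that sum. The median log2 fold change of all genes moved to -0.21 in WT and -0.28 in IL1RAP-KO cells with TPM as deposited, and to 0.38 in IL1R1-KO and 0.30 in IL1RAP-KO cells with non-mitochondrial scaling. The ratio of 2 genes within a library does not depend on any of these factors.

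**Figure D1:**
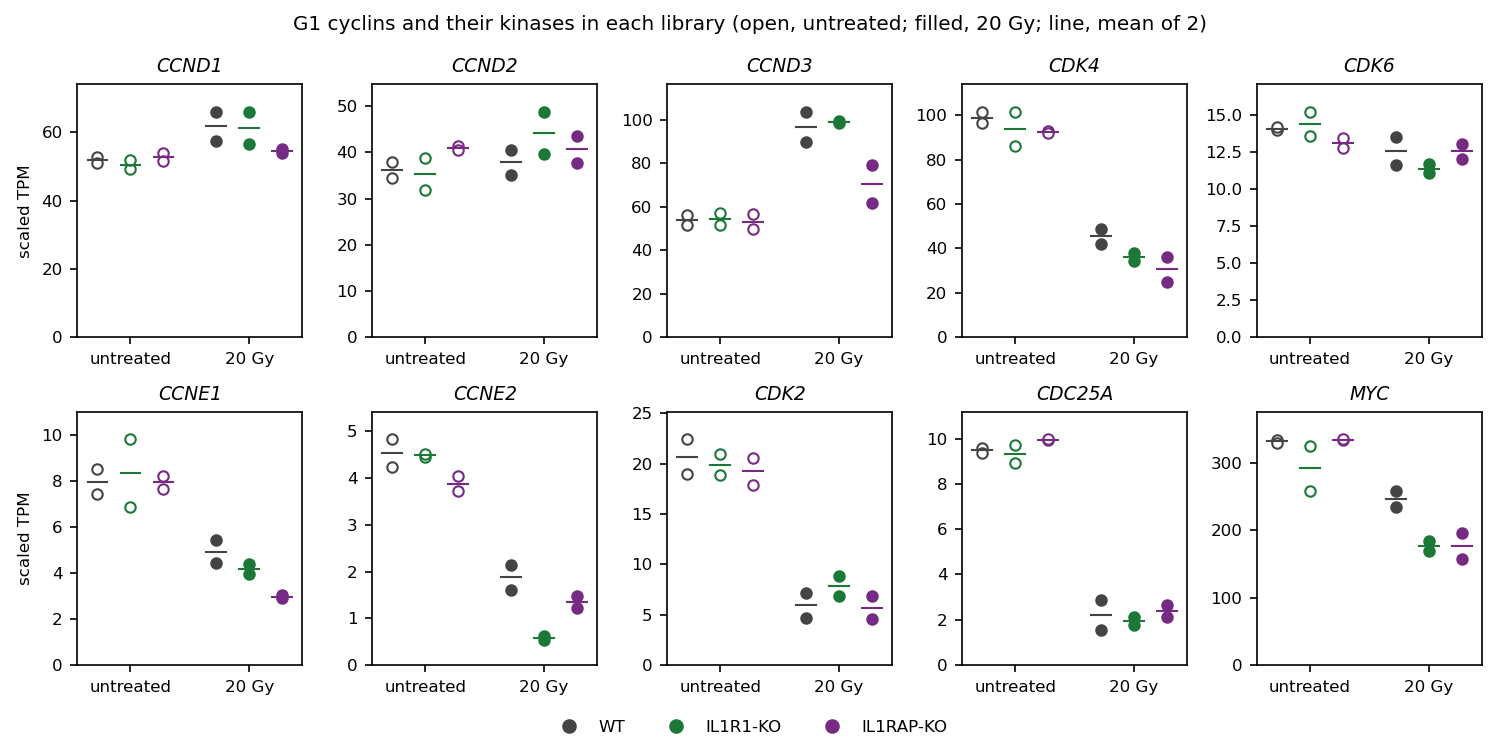
Scaled TPM of each of the 10 genes (vertical axes from 0) in the 12 libraries, with open points for untreated and filled points for 20 Gy libraries, coloured by genotype, and a line at each mean of 2. CDC25A stood between 8.91 and 9.96 in the 6 untreated libraries and between 1.56 and 2.85 in the 6 RT libraries, and CCND2 and CDK6 overlapped. The share of all tested genes without such an overlap was not taken.

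Among the D-type cyclins, CCND3 differed most between RT and untreated libraries. It stood at 56.2 and 51.5 in WT, 51.8 and 57.3 in IL1R1-KO and 56.5 and 49.7 in IL1RAP-KO libraries. After RT it stood at 103.8 and 89.7 in WT, 98.5 and 99.3 in IL1R1-KO and 79.2 and 61.8 in IL1RAP-KO libraries, above every untreated library. The log2 fold change was 0.83 (SE 0.13, adjusted p = 0.00061) in WT, 0.85 (adjusted p = 0.00043) in IL1R1-KO and 0.39 (adjusted p = 0.026) in IL1RAP-KO cells, none over the fold threshold. With non-mitochondrial scaling the value in cells labelled IL1R1-KO was 1.29 and passed it, and the sign was the same under the 3 other scalings in each genotype, down to 0.05 in IL1RAP-KO cells as deposited. Leaving out IL1RAP-KO RT replicate 1 gave 0.22 in IL1RAP-KO cells (adjusted p = 0.16), and leaving out IL1RAP-KO replicate 2 gave 0.30 (adjusted p = 0.16).

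CCND1, the cyclin through which many growth factor signals reach the cell cycle, was higher after RT by 0.25 log2 units in WT (adjusted p = 0.061) and by 0.27 in IL1R1-KO cells (adjusted p = 0.04), and by 0.05 in IL1RAP-KO cells (adjusted p = 0.7). Its levels ran from 49.2 to 53.8 in the 6 untreated libraries and from 53.9 to 66.1 in the 6 RT libraries. With TPM as deposited the values were -0.02 in WT and -0.30 in IL1RAP-KO cells, so their sign depended on the scaling. CCND2 ran from 31.8 to 41.4 untreated and from 35.1 to 48.9 after RT, and these ranges overlapped. Its log2 fold changes were 0.06 in WT, 0.32 in IL1R1-KO (adjusted p = 0.078) and -0.01 in IL1RAP-KO cells, with signs that turned under other scalings in WT and IL1RAP-KO cells.

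The make-up of the D-type cyclin mRNA changed with RT in a way that no scaling can alter. CCND3 took 35.1% to 39.2% of the summed D-type cyclin TPM in the 6 untreated libraries and 40% to 52.8% in the 6 RT libraries, which did not overlap. The lowest of the RT shares, 44.8% and 40%, were those of IL1RAP-KO. CCND1 took 35% to 37.1% untreated and 29.1% to 35.6% after RT, and CCND2 took 23.9% to 28.6% and 17.9% to 24.7%, with overlaps for both. These shares are described without a test.

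**Figure D2:**
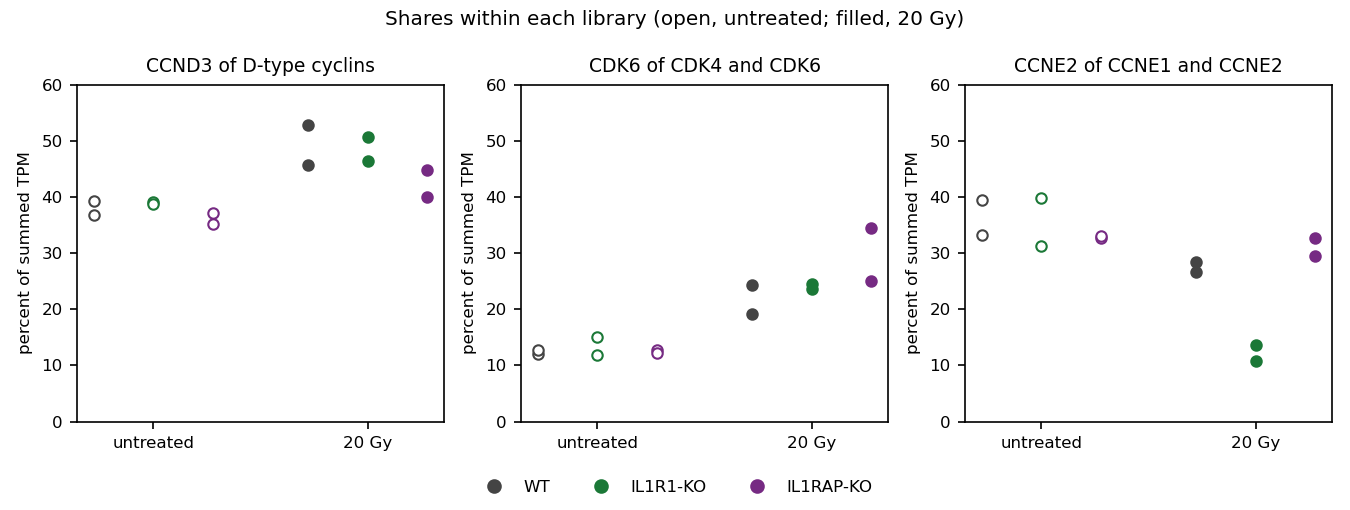
Share in percent of summed TPM within each library of CCND3 among the 3 D-type cyclins, CDK6 among CDK4 and CDK6, and CCNE2 among CCNE1 and CCNE2 (open, untreated; filled, 20 Gy; 2 points a group). The CCND3 and CDK6 shares of the RT libraries lie above those of all untreated libraries, and the CCNE2 shares of IL1R1-KO RT libraries (13.7% and 10.8%) are the lowest of the CCNE2 shares.

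Of the kinases that pair with D-type cyclins, CDK4 fell after RT and CDK6 was not called. CDK4 stood at 101.3 and 96.5 in WT, 86 and 101.6 in IL1R1-KO and 93 and 91.9 in IL1RAP-KO libraries, and after RT at 48.8 and 42, 34.2 and 37.7, and 36.2 and 24.8. Every RT library lay below every untreated library. The log2 fold change was -1.11 (SE 0.16, adjusted p = 0.00038) in WT, -1.36 (adjusted p = 8e-05) in IL1R1-KO and -1.59 (adjusted p = 3.1e-05) in IL1RAP-KO cells. The value in cells labelled IL1R1-KO missed the fold threshold with non-mitochondrial scaling, at -0.92.

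CDK6, the other kinase of the D-type cyclins, ran from 12.8 to 15.2 untreated and from 11.1 to 13.5 after RT. The log2 fold changes were -0.16 in WT (adjusted p = 0.28), -0.32 in IL1R1-KO (adjusted p = 0.039) and -0.06 in IL1RAP-KO cells (adjusted p = 0.66), and the value in IL1R1-KO cells turned to 0.10 with non-mitochondrial scaling. CDK6 took 11.8% to 15.1% of the summed TPM of the 2 kinases untreated and 19.2% to 34.5% after RT, without overlap. The highest share, 34.5%, was that of IL1RAP-KO RT replicate 2.

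In untreated libraries CDK4 TPM exceeded CCND3 TPM in all 6, with a ratio of CCND3 to CDK4 of 0.533 to 0.607, and in RT libraries CCND3 exceeded CDK4 in all 6, with a ratio of 2.13 to 2.88. The ratio of CDK4 to CCND1 likewise ran from 1.73 to 1.96 untreated and from 0.451 to 0.848 after RT. MYC had the highest TPM of the 10 genes in all 12 libraries.

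**Figure D3:**
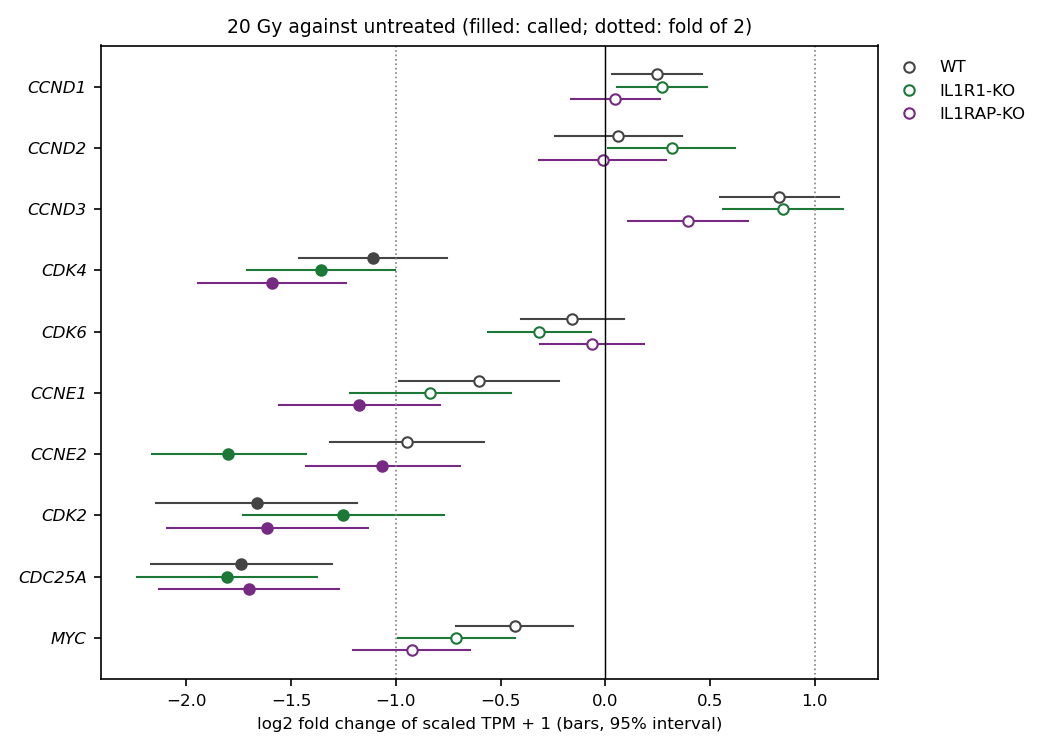
Log2 fold change of scaled TPM + 1 after 20 Gy against untreated cells for each gene (points, coloured by genotype) with 95% intervals; filled points were called, and dotted lines mark a fold of 2. CDK4, CDK2 and CDC25A are filled in all 3 genotypes, and CCND3 is the gene farthest to the right, unfilled.

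The E-type cyclins and CDK2, which act at the entry to S phase, were lower after RT. CDK2 stood at 19 and 22.4 in WT, 20.9 and 18.9 in IL1R1-KO and 17.9 and 20.6 in IL1RAP-KO libraries. After RT it stood at 4.71 and 7.16, 6.82 and 8.86, and 6.83 and 4.57. The log2 fold change was -1.67 (SE 0.21, adjusted p = 2e-04) in WT, -1.25 (adjusted p = 0.00097) in IL1R1-KO and -1.61 (adjusted p = 0.00019) in IL1RAP-KO cells. With 1 added to each scaled TPM, CDK2 was 3.17-fold, 2.38-fold and 3.06-fold lower. In cells labelled IL1R1-KO it missed the fold threshold with non-mitochondrial scaling, at -0.84. CDK2 TPM exceeded CDK6 TPM in all 6 untreated libraries and in none of the 6 RT libraries.

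CCNE1 stood at 8.5 and 7.43 in WT, 9.8 and 6.85 in IL1R1-KO and 7.66 and 8.22 in IL1RAP-KO libraries. After RT it stood at 4.42 and 5.41 in WT, 3.95 and 4.38 in IL1R1-KO and 3.03 and 2.89 in IL1RAP-KO libraries, all below the untreated ones. It was lower by 1.17 log2 units in IL1RAP-KO cells (SE 0.17, adjusted p = 0.00035; 0.88 with non-mitochondrial scaling, short of the threshold). The log2 fold changes in WT (-0.60, adjusted p = 0.017) and IL1R1-KO cells (-0.84, adjusted p = 0.0028) were not called, the latter reaching -1.07 without IL1R1-KO replicate 2. The interaction of IL1RAP-KO and RT, the test of that difference from WT, gave -0.57 (SE 0.24, adjusted p = 0.26).

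CCNE2, the other E-type cyclin, had the lowest TPM of the 10 in every library except WT RT replicate 1, where CDC25A was lower. It stood at 4.23 and 4.83 in WT, 4.46 and 4.52 in IL1R1-KO and 3.72 and 4.04 in IL1RAP-KO libraries, and after RT at 1.61 and 2.15, 0.628 and 0.53, and 1.47 and 1.21. The 2 lowest values were those of IL1R1-KO RT, and all 6 RT libraries lay below all 6 untreated ones. The log2 fold change was -1.80 (SE 0.16, adjusted p = 1.8e-05) in IL1R1-KO and -1.06 (adjusted p = 0.00049) in IL1RAP-KO cells. In WT cells it was -0.95 (adjusted p = 0.0013), short of the fold threshold, but was called without WT replicate 1 (-1.03), without WT RT replicate 2 (-1.09) and with TPM as deposited (-1.14) or a pseudocount of 0.1 (-1.24). In IL1RAP-KO cells the call was lost without IL1RAP-KO RT replicate 2 (-0.99) and with non-mitochondrial scaling (-0.82). At such low TPM the added 1 understates the change.

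CDC25A had the largest fall of the 10 genes in each genotype on the log2(scaled TPM + 1) scale, level with CCNE2 in IL1R1-KO cells. It stood at 9.56 and 9.38 in WT, 8.91 and 9.72 in IL1R1-KO and 9.92 and 9.97 in IL1RAP-KO libraries, against 1.56 and 2.86, 1.77 and 2.14, and 2.64 and 2.11 after RT. The RT libraries all lay below the untreated libraries. The log2 fold change was -1.74 (SE 0.19, adjusted p = 8.1e-05) in WT, -1.81 (adjusted p = 4.5e-05) in IL1R1-KO and -1.70 (adjusted p = 7.1e-05) in IL1RAP-KO cells, and the call held under all the alternatives run, at -2.20 to -1.41.

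MYC stood at 334.5 and 329.9 in WT, 258.9 and 324.8 in IL1R1-KO and 333.6 and 335.1 in IL1RAP-KO libraries, and after RT at 258.2 and 234.4, 169.8 and 183.9, and 196.3 and 157.4. The RT libraries lay below the untreated ones, the highest of them only just below the lowest untreated library. The log2 fold changes were -0.43 (SE 0.13, adjusted p = 0.019) in WT, -0.71 (adjusted p = 0.0011) in IL1R1-KO and -0.92 (adjusted p = 0.00022) in IL1RAP-KO cells, below the fold threshold in all 3. In IL1RAP-KO cells it passed with TPM as deposited (-1.28) and without IL1RAP-KO RT replicate 1 (-1.08). MKI67, a mark of cycling cells, stood at 37.3 to 46.4 untreated and at 0.671 to 1.85 after RT, and with bulk RNA fewer cycling cells and less mRNA per cell cannot be told apart.

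Between genotypes, no member was called in untreated cells or after RT. Without RT, limma gave 0 of 10 genes an unadjusted p under 0.05 for either KO genotype, with log2 fold changes of -0.20 (MYC) to 0.04 (CCNE1) and of -0.18 (CCNE2) to 0.18 (CCND2). Among all genes 0.137% and 0.0915% were called. After RT the shares called were 3.06% for IL1R1-KO RT and 2.89% for IL1RAP-KO RT against WT RT. Of the 10 genes 2 and 4 had an unadjusted p under 0.05. The shares of all genes at that unadjusted p were not taken. They were at least 9.93% and 12%, the shares called with the lower fold threshold of the study's methods.

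CCNE2 was lower in IL1R1-KO RT than in WT RT libraries by 0.86 log2 units (SE 0.16, 95% interval -1.23 to -0.49, adjusted p = 0.0091), short of the fold threshold. It passed with a pseudocount of 0.1 (-1.53), and over the alternatives the adjusted p ran from 0.0039 to 0.075, with 0.052 without WT RT replicate 2 and 0.056 without IL1R1-KO RT replicate 2. The interaction of IL1R1-KO and RT was -0.85 (adjusted p = 0.09). Within libraries CCNE2 took 26.6% and 28.4% of the E-type cyclin TPM in WT RT, 13.7% and 10.8% in IL1R1-KO RT and 32.6% and 29.5% in IL1RAP-KO RT, against 31.3% to 39.8% in the untreated libraries.

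MYC was lower in both KO genotypes after RT, by 0.48 log2 units in IL1R1-KO (adjusted p = 0.036) and in IL1RAP-KO cells (adjusted p = 0.033) against the same 2 WT RT libraries, and in neither case over the fold threshold. In IL1R1-KO RT the adjusted p was 0.47 with TPM as deposited and 0.073 to 0.21 when any 1 of the 4 libraries compared was left out. In IL1RAP-KO RT it was 0.17 without IL1RAP-KO RT replicate 2. CDK4 (-0.58, adjusted p = 0.039) and CCND3 (-0.46, adjusted p = 0.041) were lower in IL1RAP-KO RT than in WT RT libraries, and without IL1RAP-KO RT replicate 2 they were lower by 0.31 (adjusted p = 0.17) and 0.28 (adjusted p = 0.2). CCNE1 stood at -0.57 (adjusted p = 0.051). For CDK2 and CDC25A the 95% intervals in IL1RAP-KO RT against WT RT ran from -0.53 to 0.43 and from -0.33 to 0.53, which leaves room for differences of either sign.

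Tested as interactions, the responses to RT gave 0 calls among the 10 genes, against 1.44% of all genes for IL1R1-KO and 0.817% for IL1RAP-KO, and 1 and 3 genes had an unadjusted p under 0.05. The largest was that of CCNE2 with IL1R1-KO, given above. With IL1RAP-KO they were CCNE1, MYC (-0.49, adjusted p = 0.2) and CCND3 (-0.44, adjusted p = 0.25). The shares of all genes with an unadjusted p under 0.05 in the interactions were not taken. When IL1RAP-KO RT replicate 1 was left out, the interactions of CCND3, CDK4 and MYC were -0.61, -0.75 and -0.65, none over the fold threshold. That fit rested on IL1RAP-KO RT replicate 2 alone for its group, the library with a 57% mitochondrial share. Without IL1RAP-KO RT replicate 2 the values were -0.26, -0.22 and -0.33. The balance of all genes called against WT after RT also turned on the scaling: 38.4% were higher in IL1R1-KO RT, 64% as deposited and 71.8% with non-mitochondrial scaling, and 28.5% in IL1RAP-KO RT, 15% and 58.1%. Of the genes called in the interactions 35.7% and 19.2% were positive, and 75.7% and 56.1% with non-mitochondrial scaling.

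**Figure D4:**
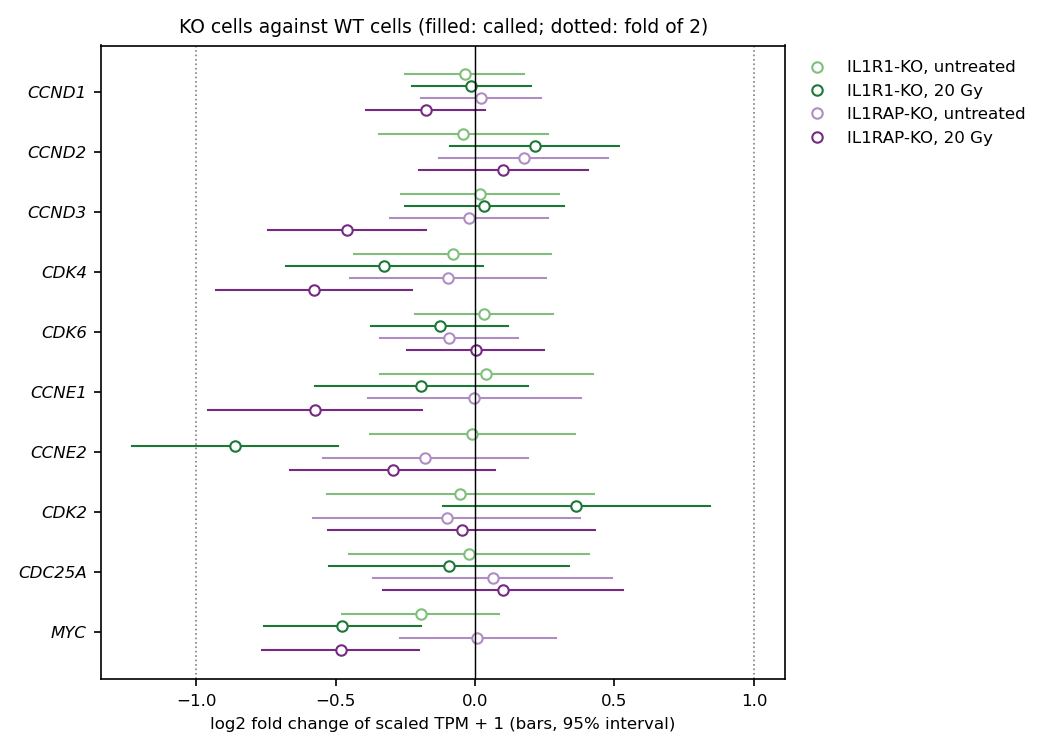
Log2 fold change of scaled TPM + 1 in KO against WT cells for each gene (points, with 95% intervals), untreated in pale and after 20 Gy in dark colour, with dotted lines at a fold of 2. No point is filled because none was called, and CCNE2 in IL1R1-KO cells after 20 Gy (-0.86) lies farthest from 0.

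The rest of the G1 network was described by lists chosen with earlier results of these data known. Of 5 CDK inhibitors tested, RT raised 1 and lowered 1 in WT cells, raised 2 in cells labelled IL1R1-KO and raised 1 in IL1RAP-KO cells. Among all genes 7.05% were called higher and 6.16% lower in WT, 8.16% higher in IL1R1-KO and 8.21% higher in IL1RAP-KO cells. CDKN1A, the inhibitor induced by p53, rose from 76.4 ± 1.21 (SD, n = 2) to 219.7 ± 4.33 in WT cells, with log2 fold changes of 1.51 in WT (adjusted p = 8.4e-05), 2.15 in IL1R1-KO and 1.73 in IL1RAP-KO cells. CDKN1C, the inhibitor p57, fell in WT cells from 7.61 ± 0.0710 to 3.11 ± 0.532 (log2 fold change -1.07, adjusted p = 0.00086; -0.94 and not called without WT RT replicate 1, -0.98 and not called with non-mitochondrial scaling) and stood at 10.1 and 8.48 in IL1R1-KO without and with RT. In IL1R1-KO RT it was higher than in WT RT by 1.21 log2 units (adjusted p = 0.0022). The inhibitor p27, CDKN1B, was not called after RT and had a log2 fold change of -0.20 in WT.

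None of the 3 RB family genes was called after RT, and RBL2 had a log2 fold change of 0.27 in WT (adjusted p = 0.022). Of 9 E2F and DP factors 3 were lower in WT, 1 in IL1R1-KO and 2 in IL1RAP-KO cells. Of all genes 6.16%, 8.16% and 9.18% were called lower, so that the count in IL1R1-KO cells was near that of all genes. E2F1, an activating factor, was called at log2 fold changes of -1.06 in WT, -1.17 in IL1R1-KO and -1.76 in IL1RAP-KO cells, of which the first missed the fold threshold without WT replicate 2 (-0.99) or WT RT replicate 1 (-0.81). With non-mitochondrial scaling E2F1 missed it in WT (-0.97) and IL1R1-KO cells (-0.98), and the list held 1 call in WT and 0 in IL1R1-KO cells. E2F5 was called in WT, from 14.4 ± 0.841 to 6.74 ± 1.53, and not without WT replicate 1 (-0.95) or WT RT replicate 2 (-0.80), with median-of-ratios factors (-0.97) or with non-mitochondrial scaling (-0.91). TFDP1, the partner of E2F factors, was not called at -0.55 in WT (adjusted p = 0.00096), short of the fold threshold.

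Of 15 S phase genes that E2F factors bind, 11 were called lower in WT, 11 in IL1R1-KO and 12 in IL1RAP-KO cells, with median log2 fold changes of -1.80, -2.06 and -2.04, against 6.16%, 8.16% and 9.18% of all genes. CCNA2, cyclin A2, fell from 42.3 ± 1.03 to 2.07 ± 0.87 in WT cells (log2 fold change -3.85) and TK1, thymidine kinase, from 17.9 ± 1.21 to 0.665 ± 0.102 (-3.51). PCNA, the sliding clamp of DNA polymerase, was lower by 0.76 log2 units in WT, short of the fold threshold.

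Of 13 other cyclins and CDKs 6 were called lower in each genotype. The share of all genes called lower was 6.16% in WT, 8.16% in IL1R1-KO and 9.18% in IL1RAP-KO cells. CCNB1, the cyclin of mitosis, had log2 fold changes of -3.59 in WT, -4.04 in IL1R1-KO and -4.09 in IL1RAP-KO cells. CDK1, its kinase, had log2 fold changes of -3.39 in WT and -3.94 in IL1RAP-KO cells. CCNG1, a p53 target, had a log2 fold change of -0.72 in WT (adjusted p = 4.2e-05) and was not called, short of the fold threshold. Of 9 genes of cyclin turnover, SKP2 (-1.71 in WT) and CKS1B (-1.23 in WT) were called lower in each genotype. They encode a ubiquitin ligase subunit and its cofactor that direct p27 for degradation. With non-mitochondrial scaling CKS1B was called in WT alone. SKP1 was not called at -0.31 in WT (adjusted p = 0.016), short of the fold threshold. Of 8 enzymes that activate or inhibit CDKs 2 were lower in WT and 3 in each KO genotype. CDC25C, the phosphatase that activates CDK1, had a log2 fold change of -3.25 and the inhibitory kinase PKMYT1 of -3.33 in WT, while CDC37, the co-chaperone of CDK4, was at 0.00 in WT.

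Of 8 partners and antagonists of MYC none was called after RT, with median log2 fold changes of 0.12 in WT, 0.42 in IL1R1-KO and 0.41 in IL1RAP-KO cells. MLX, one of them, had -0.03 in WT. Of 16 nucleolar MYC targets, genes of ribosome production, 1 was called lower in WT, 5 in IL1R1-KO and 6 in IL1RAP-KO cells (medians -0.65, -0.91 and -0.98), against 6.16%, 8.16% and 9.18% of all genes, so that the count in WT was near that of all genes. With TPM as deposited 6 were called in WT and 11 in IL1RAP-KO cells, and with non-mitochondrial scaling 2 in IL1R1-KO and 3 in IL1RAP-KO cells. MRTO4 fell from 56.3 ± 2.46 to 24.2 ± 1.27 in WT cells (log2 fold change -1.19). NOP16 was not called at -0.72 in WT (adjusted p = 4.8e-05), short of the fold threshold. Between genotypes after RT, the lists, with 86 tested genes in all, held 1 call higher in IL1R1-KO RT than in WT RT, CDKN1C, and 1 lower in each KO genotype, CDC25B, which was named after its values were seen. Of all genes 3.06% and 2.89% were called. CDKN1A stood at 0.83 in IL1R1-KO RT against WT RT (adjusted p = 0.012), short of the fold threshold, and passed it with TPM as deposited (1.09, adjusted p = 0.015) and with non-mitochondrial scaling (1.17, adjusted p = 0.0015).

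**Figure D5:**
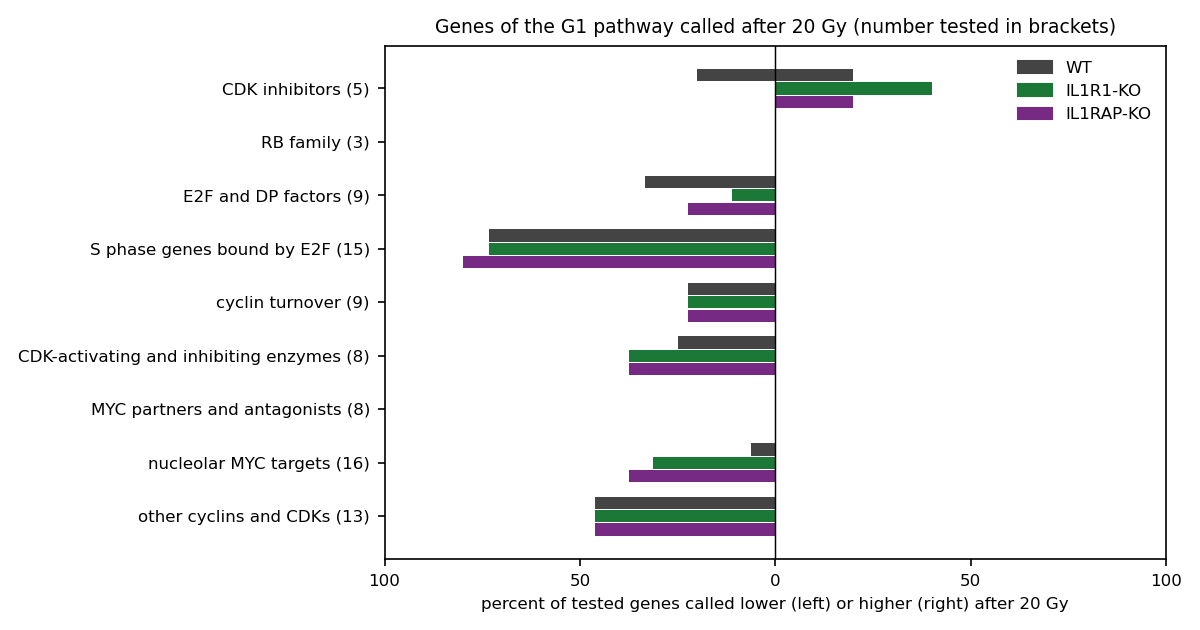
Percent of the tested genes of each G1 list called lower (bars to the left) or higher (to the right) after 20 Gy in WT, IL1R1-KO and IL1RAP-KO cells, with the number tested in brackets. The S phase genes reach farthest to the left, with 11, 11 and 12 of 15 genes, and no gene of the RB family or of the MYC partners was called.

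The genes whose levels followed each member most closely over the 12 libraries were taken by Pearson correlation of log2 scaled TPM. All correlations are across libraries that share 2 treatments and 3 genotypes, so they mostly repeat the split into untreated and RT libraries, and they are given without a test. CDK4 was followed by SLC25A3 (r = 0.998) and EIF4H (r = 0.997), CDC25A by CAPN6 (r = 0.998) and RFC3 (r = 0.996) and CDK2 by MRPS23 (r = 0.991) and RBM15 (r = 0.99). MYC was followed by CHP1 (r = 0.985) and MRPL12 (r = 0.985), CCNE2 by HNRNPD (r = 0.984) and ESCO2 (r = 0.984) and CCNE1 by LAP3 (r = 0.982) and EARS2 (r = 0.973). CCND3 was followed by HDAC5 (r = 0.973) and CCNL2 (r = 0.973), CCND1 by SV2B (r = 0.958) and PADI2 (r = 0.936), and CDK6 by RWDD1 (r = 0.924) and ZMYM4 (r = 0.918). CCND2 had the weakest best match, with RUBCN (r = 0.855) and SLCO2A1 (r = 0.832).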

How the data were processed

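RNA was measured in 12 libraries, 2 in each of 6 groups. The authors removed ribosomal RNA, made stranded libraries and sequenced both read ends. Reads were trimmed (cutadapt 1.15), mapped to the GRCh38 genome (STAR 2.5.3a) and assigned to genes (HTSeq). The authors deposited TPM, and no read counts were used here, so library depth is unknown and counting error could not be given. The 12 single-library tables equal the columns of the whole table.

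TPM were multiplied by unweighted trimmed mean factors (30% of M and 5% of A values trimmed), 1 was added and log2 taken. The 15303 genes that reached 1 TPM in 2 or more libraries entered 1 model, a mean for each of 6 groups with a variance trend and 6 residual degrees of freedom (limma 3.58.1, R 4.3.3), with Benjamini-Hochberg adjustment over all genes. Calls needed an adjusted p below 0.05 and more than a 2-fold change. The 9 comparisons were RT in each genotype, each KO against WT with and without RT, and the interactions of KO and RT. The fit was tested on simulated data in which genes changed in WT RT alone. Those data held no shift in mitochondrial share, so that test does not bear on the choice of scaling. Biological replicates are named by the study without saying whether cultures were separate, so p-values measure the spread between these libraries.

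The members, lists and scaling were chosen with earlier results of these data known. All members are named; of each list up to 2 called genes with the smallest adjusted p in WT and the uncalled gene with the highest mean are named, and of each member the 2 genes with the highest correlation. Same-numbered libraries deviated from their group means together at r = -0.061 to 0.095 (15 group pairs, median 0.0082), and the number served as a block only in an alternative. Other alternatives were TPM as deposited, median-of-ratios factors, non-mitochondrial sums, a pseudocount of 0.1, other filters, the lower fold threshold of the study's methods, fits of the compared libraries alone, and leaving out each library. Motifs, positions and shares used pandas 2.3.3 and figures matplotlib 3.10.9.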

Additional observations from a re-analysis of the deposited data

How the results depend on the processing

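With the replicate block, the counts of members called lower after RT were 3 (WT), 4 (IL1R1-KO) and 5 (IL1RAP-KO), and no member was called higher, between genotypes or in an interaction. Leaving out each library gave 3 to 4, 4 to 5 and 4 to 6 lower after RT (4 without IL1RAP-KO RT replicate 2, 6 without IL1RAP-KO RT replicate 1). With the lower fold threshold of the study's methods, 5 members were lower and 1 higher in WT (19.8% and 17.8% of all genes), 6 lower and 1 higher in IL1R1-KO (22.2% and 20.3%) and 6 lower in IL1RAP-KO (23.4%). Against WT RT, 2 were called in IL1R1-KO RT (9.93% of all genes) and 3 for IL1RAP-KO (12%). With scaling to non-mitochondrial genes, 2 were lower and 1 higher in IL1R1-KO cells, against 583 lower and 2621 higher of all 15303 genes. In IL1RAP-KO cells 3 members were lower with that scaling, against 723 of all genes. With a pseudocount of 0.1, 1 member was called in IL1R1-KO RT against WT RT. Of 90 member values, 18 had the other sign with that non-mitochondrial scaling, 16 with TPM as deposited and 2 with median-of-ratios factors. Among members and named list genes with an adjusted p under 0.05 as reported, signs turned with non-mitochondrial scaling for CDK6 after RT in IL1R1-KO (0.101), CDC37 after RT (0.187) and against WT after RT (0.002) in IL1R1-KO, and MLX after RT in IL1R1-KO (0.087), and with TPM as deposited for RBL2 after RT in IL1RAP-KO (-0.067). The cause was not tested. Over all genes and alternatives, the numbers called lower and higher after RT were 757 to 3025 and 696 to 2728 in WT (942 and 1079 as reported), 583 to 3401 and 788 to 3105 in IL1R1-KO (1248 and 1248) and 723 to 3588 and 733 to 3178 in IL1RAP-KO (1405 and 1256). Against WT after RT they were 202 to 874 and 87 to 646 in IL1R1-KO RT (289 and 180) and 66 to 1121 and 4 to 722 in IL1RAP-KO RT (316 and 126). Without RT they were 0 to 39 and 0 to 20 in IL1R1-KO (18 and 3) and 0 to 18 and 0 to 2 in IL1RAP-KO (14 and 0). Negative and positive interactions were 77 to 288 and 23 to 386 for IL1R1-KO (142 and 79) and 37 to 425 and 5 to 192 for IL1RAP-KO (101 and 24), the highest of the last without IL1RAP-KO RT replicate 1. CCNE2 has no value under the filter of 5 TPM in 2 libraries, since 1 library alone reached 5 TPM. TPM carry no depth, so low genes such as CCNE2 have an unknown counting error, and 2 libraries a group limit every test.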
